A study of Mus musculus with 24 samples.

Results

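The genes described here are 8 that mark pulmonary neuroendocrine cells, among the 23420 genes of each expression table: *Calca*, *Gal*, *Chga*, *Chgb*, *Scg5*, *Resp18*, *Uchl1* and *Syp*. They were taken by symbol, and all 8 passed the filter on low values in all 4 comparisons, *Chga* in the *Ror2* P5 comparison through its 3 mutant lungs alone. Pulmonary neuroendocrine cells are rare endocrine cells of the airway epithelium. They lie singly or in clusters called neuroepithelial bodies, often at branch points, and sense oxygen, stretch and inhaled irritants. They store peptides and amines in dense-core granules and release them onto nerves and neighbouring cells. Notch signaling restrains their number.

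RNA came from the left lung lobe of mice at postnatal day (P) 2 and P5 and was sequenced in bulk. *Vangl2* encodes a core protein of planar cell polarity and *Ror2* a receptor for WNT5A. The mutants were *Vangl2* f/f; *Sox9* Cre/+ (labelled Sox9Cre; Vangl2f/f) and *Ror2* f/f; *Sox9* Cre/+ (labelled Sox9Cre; Ror2f/f), 3 lungs per mutant and age. The controls, with the genotype entry WT, were labelled Control(Vangl1/2) or Control(Ror2), 3 lungs for each mutant at each age, so no comparison shared a control lung. Cre from the *Sox9* locus deletes the floxed gene in the SOX9+ distal lung epithelium, and a whole lobe also holds cells outside that epithelium. The genotype entries of 6 mutants (*Vangl2* at P5 and *Ror2* at P2) name the other gene, and the titles were followed. The labels do not say that same-numbered lungs were littermates, nor that each lung came from its own animal or litter, so p-values measure the spread between these lungs.

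A lung had between 13823693 and 21546673 reads on genes. The lowest belonged to control 1 of the *Ror2* P5 comparison, which has no reads on nearly all genes of chromosomes 6 to 9 and X and on most of chromosome 5. Its values for *Calca*, *Uchl1* and *Syp* were treated as missing. The targeted genes were read in every lung first. *Vangl2* was lower in all 3 *Vangl2* mutants than in all 3 controls at P2 (173, 224 and 241 against 249, 281 and 302 normalized counts) and at P5 (148, 166 and 169.5 against 292, 314 and 369). *Ror2* overlapped between *Ror2* mutants and controls at P2 (349, 366 and 479 against 451, 519.8 and 581) and at P5 (362, 439.7 and 521 against 367.5, 526 and 597), so its level in the whole lobe did not separate the groups that the titles name. In the 6 lungs with conflicting labels, the gene of the genotype entry overlapped with its controls. *Vangl2* had 208, 251 and 236 normalized counts in the *Ror2* P2 mutants against 245 to 291 in controls (log2 fold change -0.21, SE 0.14). *Ror2* had 541, 351 and 273 in the *Vangl2* P5 mutants against 478 to 611 in controls (log2 fold change -0.48, SE 0.25). A normalized count is a read count divided by the lung's size factor. In a whole lobe, a change in the number of neuroendocrine cells and a change in RNA per cell cannot be told apart.

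Upstream sequences are shown for 4 members on which the comparisons turn: *Calca* and *Resp18*, whose mutant lungs all lay above the controls in 3 comparisons each, *Chga*, and *Gal*, the member that passed the test. Each is the 250 bases before the RefSeq start site on the gene's strand (GRCm38.p6). The *Calca* window lies inside the gene's RefSeq span, since another start is annotated upstream. Capitals mark CAGCTG, an E-box, the general motif of basic helix-loop-helix factors, and TGACG in either orientation, the core of the cyclic AMP response element bound by CREB. CAGCTG reads the same on both strands, and TGACG overlaps itself in the full element TGACGTCA.
Calca, chr7:114636358-114636607, minus strand: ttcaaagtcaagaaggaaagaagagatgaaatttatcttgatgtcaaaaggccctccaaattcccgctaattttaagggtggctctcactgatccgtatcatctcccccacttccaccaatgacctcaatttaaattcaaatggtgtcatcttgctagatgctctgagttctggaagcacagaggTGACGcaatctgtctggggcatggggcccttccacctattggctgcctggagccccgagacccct
Resp18, chr1:75278416-75278665, minus strand: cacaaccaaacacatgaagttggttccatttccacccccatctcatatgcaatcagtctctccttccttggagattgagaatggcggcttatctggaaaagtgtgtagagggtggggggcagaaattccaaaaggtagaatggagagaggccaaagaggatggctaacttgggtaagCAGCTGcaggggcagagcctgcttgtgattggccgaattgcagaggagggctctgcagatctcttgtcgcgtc
Chga, chr12:102554691-102554940, plus strand: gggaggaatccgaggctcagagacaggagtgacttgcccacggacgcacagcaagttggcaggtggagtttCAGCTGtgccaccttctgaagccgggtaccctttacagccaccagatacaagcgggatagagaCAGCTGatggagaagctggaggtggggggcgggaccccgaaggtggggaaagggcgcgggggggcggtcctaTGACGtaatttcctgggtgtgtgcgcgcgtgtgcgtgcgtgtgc
Gal, chr19:3414545-3414794, minus strand: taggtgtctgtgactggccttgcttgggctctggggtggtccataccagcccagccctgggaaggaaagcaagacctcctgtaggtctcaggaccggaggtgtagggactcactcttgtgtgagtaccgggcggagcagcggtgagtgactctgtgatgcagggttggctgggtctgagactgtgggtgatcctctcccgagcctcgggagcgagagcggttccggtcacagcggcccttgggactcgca
CAGCTG was found in 2 of the 8 member windows, *Resp18* (73 bases before the start) and *Chga* (179 and 116 bases before it), and in 13.0% of all 32851 windows of this length. TGACG was found in 4 of the 8, *Calca*, *Chga*, *Chgb* and *Scg5*, and in 17.8% of all windows. The full TGACGTCA stood 72 bases before the start of *Chgb* and in 1.55% of all windows. The *Gal* window held none of these letters. A match is a description of the letters and not a measured site.

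On GRCm38 the members lie at chr12:102554941-102565027 (*Chga*), chr2:132781642-132795079 (*Chgb*), chr2:113776313-113829091 (*Scg5*), chr1:75272197-75278415 (*Resp18*), chr5:66676121-66687234 (*Uchl1*) and chrX:7638580-7653256 (*Syp*). *Calca* spans chr7:114625981-114636910 and *Gal* chr19:3409915-3414544. The antisense long non-coding RNA *Uchl1os* shares 377 bases with *Uchl1*, and since no strand setting is given in the sources used here their reads could be mixed there. No other RefSeq gene overlaps a member. Per 1000000 reads and per kb of exon, *Uchl1* had the highest level of the 8 in each of the 4 control groups, with means from 6.21 to 9.57. *Syp* followed at 2.14 to 3.05, and in the *Ror2* P5 controls 2 and 3 *Gal* was near it, at 2.35 and 2.09. The means of *Chga*, *Chgb* and *Calca* were all under 1 on this scale in every control group, and *Calca* was at 0.0472 in the *Ror2* P5 controls (n = 2).

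**Figure D1:**
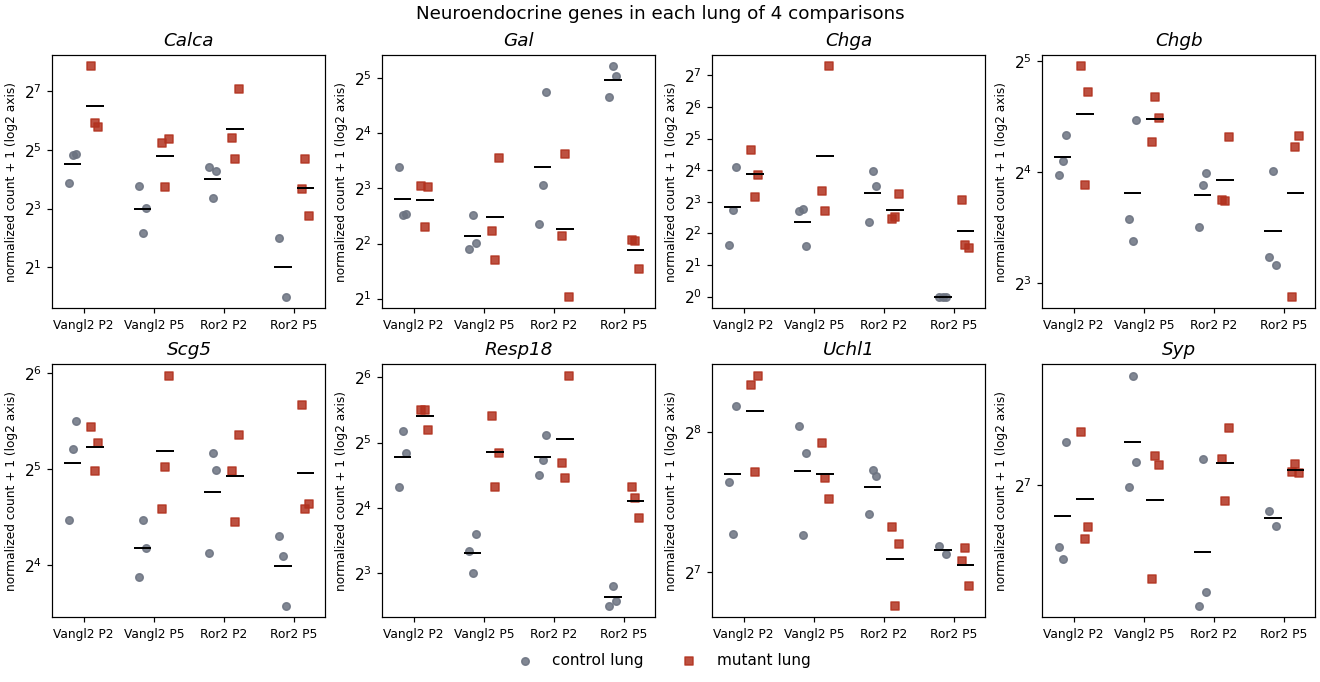
Normalized count plus 1 (log2 axis) of each of the 8 genes in each lung of the 4 comparisons. Grey circles are control lungs, red squares mutant lungs and black bars the mean on the log2 scale, with 3 lungs per group except for *Calca*, *Uchl1* and *Syp* in the *Ror2* P5 controls (2 lungs). *Calca* mutants lie above the controls in 3 comparisons, and the *Gal* controls of the *Ror2* P5 comparison, at 24.3 to 36.1 normalized counts, lie above its mutants at 1.91 to 3.17.

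*Calca* had the highest mutant mean relative to its controls at P2 of the 8 genes in both mutants. No *Calca* difference passed the main test, which had no replicate block. The gene encodes calcitonin gene-related peptide, the peptide by which clusters of these cells are usually stained. In the *Vangl2* P2 comparison the controls had 13.7, 27.5 and 27.8 normalized counts and the mutants 229, 59.0 and 54.0. Every mutant lung was above every control lung, as for 14.6% of genes tested, and mutant 1 stood far above the other two. The log2 fold change was 1.99 (SE 0.58), with limma's adjusted p = 0.101 over all genes tested. It was 1.33 without mutant 1 and 2.36 without mutant 3, and in the latter fit the adjusted p of limma was 0.0441. DESeq2, run on the whole reads recovered from the normalized counts, gave an adjusted p of 0.00299.

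In the *Ror2* P2 comparison the *Calca* controls had 20.6, 9.19 and 18.6 normalized counts and the mutants 41.7, 24.7 and 136. The mutants were again all above the controls, as for 13.4% of genes tested, and mutant 3 was the lung that stood apart. The log2 fold change was 1.70 (SE 0.64, limma's adjusted p = 0.229) and was 1.02 without mutant 3. At P5 the *Vangl2* controls had 12.8, 3.53 and 7.05 and the mutants 36.7, 12.3 and 40.2, so that mutant 2 lay inside the range of the controls. The log2 fold change there was 1.79 (SE 0.60), with limma's adjusted p = 0.176 and, with replicate number as a block, 0.0416. At P5 the *Ror2* controls 2 and 3 had 3.01 and 0 normalized counts (3 and 0 reads) and the mutants 11.6, 25.1 and 5.73. All 3 mutants were above both controls, as for 15.6% of genes tested, the log2 fold change was 2.70 (SE 0.80) and limma's adjusted p was 0.179. The 3 mutants were enough to pass the filter there, with 1 control at its minimum, so that separation is a description. The log2 fold change rested on few reads, and was 1.70 without control 3 and 3.70 without control 2.

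*Gal* was the 1 member that passed the test, and it fell. It encodes galanin, a neuropeptide made by neurons and some endocrine cells. In the *Ror2* P5 comparison the controls had 24.3, 36.1 and 31.8 normalized counts (26, 36 and 32 reads) and the mutants 3.17, 3.13 and 1.91 (3, 3 and 2 reads). The groups lay far apart with little spread inside either. The log2 fold change was -3.09 (SE 0.34, 95% interval -3.88 to -2.30), with limma's adjusted p = 0.0305. Of the 17179 genes tested in this comparison 0.128% were called, 0.064% as lower, and 14.3% had every mutant below every control. The sign held in all 16 alternatives, which enter the fit without control 1 more than once. The call was lost with a replicate block (adjusted p = 0.0668 by limma) and when control 1, 2 or 3 or mutant 2 was left out (0.0885, 0.160, 0.193 and 0.287). It was also lost when control 1 was kept as deposited for every gene (adjusted p = 0.183 by limma). Control 1 is the lung that lacks reads on part of the genome, which does not include *Gal* on chromosome 19.

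Set against the rest of the 24 lungs, the *Ror2* P5 control lungs were high in *Gal*, while the mutants, lowest by group mean, overlapped the group next to them. Per 1000000 reads on genes, a scale that does not depend on the table, controls 2 and 3 had 1.85 and 1.65. Control 1 had 1.88, over a total that lacks part of the genome, and its 24.3 normalized counts lie below the 26.1 of *Ror2* P2 control 3. The *Ror2* P5 mutants had 0.101 to 0.172, with the lowest mean of the 8 groups (0.147), and overlapped the *Vangl2* P5 controls at 0.139 to 0.243. The next level was that of the *Ror2* P2 controls, at 0.220 to 1.41, below *Ror2* P5 controls 2 and 3. In the order of the 8 group means, each of the 6 lower neighbouring pairs overlapped.

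In the *Ror2* P2 comparison *Gal* stood at 4.13, 7.35 and 26.1 normalized counts in controls and 3.38, 11.4 and 1.05 in mutants. Control 3 was high and the groups overlapped (log2 fold change -1.13, SE 0.84, limma's adjusted p = 0.467). In the *Vangl2* P2 comparison the controls had 9.48, 4.74 and 4.79 and the mutants 7.24, 3.93 and 7.13, with a log2 fold change of -0.03 (SE 0.45). At P5 the *Vangl2* controls had 2.74, 4.70 and 3.02 and the mutants 3.67, 2.24 and 10.7, with a log2 fold change of 0.35 (SE 0.60). Both *Vangl2* comparisons overlapped, with limma's adjusted p = 0.981 at P2 and 0.801 at P5.

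*Resp18* was higher in every mutant than in every control in 3 of the 4 comparisons, without passing the test in any. It encodes a protein of dense-core granules found in endocrine and neural cells. At P5 the *Vangl2* controls had 9.12, 7.05 and 11.1 normalized counts and the mutants 41.2, 19.0 and 27.7. The *Ror2* P5 controls had 4.66, 6.02 and 4.96 and the mutants 19.0, 16.7 and 13.4. Neither pair of ranges touched. Every mutant was above every control for 13.2% of genes tested in the *Vangl2* P5 and 15.6% in the *Ror2* P5 comparison. The log2 fold changes were 1.54 (SE 0.42, limma's adjusted p = 0.123) and 1.47 (SE 0.32, adjusted p = 0.120), near each other in size, and with the replicate block the *Vangl2* value had an adjusted p of 0.0536.

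At P2 *Resp18* had 19.0, 35.1 and 27.8 normalized counts in the *Vangl2* controls and 44.4, 44.3 and 35.7 in the mutants. Mutant 3 lay just above the highest control (log2 fold change 0.62, SE 0.31, limma's adjusted p = 0.286). Every mutant was thus above every control, as for 14.6% of genes tested. The *Ror2* P2 groups overlapped, with 21.7, 25.7 and 33.5 in controls and 24.8, 20.9 and 64.1 in mutants. There the log2 fold change was 0.27 (SE 0.45) and became -0.21 without mutant 3.

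*Scg5*, a granule chaperone of a prohormone convertase, had its larger fold changes at P5, and passed the test in no comparison. At P5 it had 13.7, 21.2 and 17.1 normalized counts in the *Vangl2* controls and 22.9, 31.3 and 61.7 in the mutants, and 18.7, 16.1 and 10.9 in the *Ror2* controls and 49.7, 22.98 and 23.9 in the mutants. Every P5 mutant was above every control of its comparison, as for 13.2% of genes tested in the *Vangl2* and 15.6% in the *Ror2* comparison. The log2 fold changes were 1.01 (SE 0.44, limma's adjusted p = 0.263) and 0.97 (SE 0.38, adjusted p = 0.242). The first was 0.62 without mutant 3 of the *Vangl2* comparison, and the second 0.62 without mutant 1 of the *Ror2* comparison. At P2 the groups overlapped in both comparisons, with log2 fold changes of 0.17 (SE 0.34) for *Vangl2* and 0.16 (SE 0.39) for *Ror2*.

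*Chga*, chromogranin A, is an acidic core protein of the granules. It had no read in any of the 3 *Ror2* P5 controls and 7, 2 and 2 reads in the mutants. Set against a floor of 3 reads over the control group, the mutant mean of 3.80 normalized counts was at least 3.89-fold higher. This bound covers counting error alone, and limma's adjusted p was 0.147. The gene entered that test only through the mutant lungs, so the direction followed from the filter and is a description. In the *Vangl2* P5 comparison the controls had 5.47, 5.88 and 2.02 normalized counts and the mutants 9.16, 5.60 and 155. The log2 fold change of 2.09 (SE 1.10, limma's adjusted p = 0.351) rested on mutant 3, without which it was 0.68. That lung also stood apart in neuron markers, with 152 reads of *Tubb3* and 113 of *Elavl4* against 3 to 18 and 5 to 14 in the other 5 lungs of the comparison. The part of those markers in the *Chga* value was not tested.

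At P2 *Chga* overlapped in both comparisons. The *Vangl2* controls had 2.11, 5.69 and 16.3 normalized counts and the mutants 23.8, 7.87 and 13.2 (log2 fold change 1.04, SE 0.68). The *Ror2* controls had 4.13, 14.7 and 10.2 and the mutants 4.51, 4.74 and 8.40 (log2 fold change -0.54, SE 0.51). The adjusted p of limma was 0.404 and 0.574. *Chgb*, chromogranin B, the sister protein, overlapped in all 4 comparisons, with log2 fold changes of 0.39 (SE 0.37) and 0.67 (SE 0.42) in *Vangl2* mutants at P2 and P5 and 0.14 (SE 0.34) and 0.35 (SE 0.48) in *Ror2* mutants. Its normalized counts ran from 6.34 to 30.0 over the 24 lungs.

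*Uchl1* and *Syp* are not particular to endocrine cells and are high in neurons too. *Uchl1* encodes a ubiquitin hydrolase and *Syp* synaptophysin, a membrane protein of small vesicles. In the *Ror2* P2 comparison *Uchl1* had 169, 211 and 205 normalized counts in controls and 159, 107 and 146 in mutants. Every mutant was below every control, by a narrow margin for mutant 1, as for 12.2% of genes tested. The log2 fold change was -0.52 (SE 0.20, limma's adjusted p = 0.235). In the *Vangl2* P2 comparison the controls had 199, 154 and 290.2 and the mutants 322, 208 and 337, and the groups overlapped (log2 fold change 0.45, SE 0.28, adjusted p = 0.380 by limma). Neither P5 comparison moved *Uchl1* by more than 0.11 on the log2 scale, with intervals of -0.59 to 0.55 for *Vangl2* and -0.51 to 0.30 for *Ror2*.

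*Syp* in the *Ror2* P5 comparison had 115 and 109 normalized counts in controls 2 and 3 and 133, 137 and 133 in mutants. The mutants lay above both controls, as for 15.6% of genes tested, by 0.26 on the log2 scale (SE 0.16, limma's adjusted p = 0.432). The other 3 comparisons overlapped, with log2 fold changes of 0.09 (SE 0.25) and -0.31 (SE 0.27) in *Vangl2* mutants at P2 and P5 and 0.47 (SE 0.25) in *Ror2* mutants at P2.

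**Figure D2:**
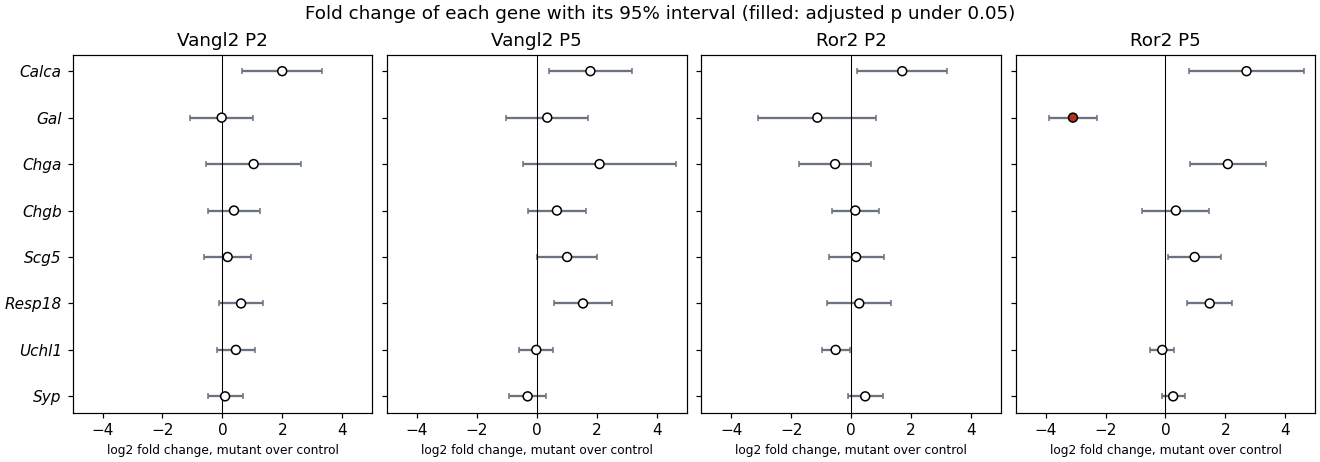
Log2 fold change of each of the 8 genes, mutant over control, in the 4 comparisons. Points are limma estimates on log2(normalized count + 1), bars their 95% intervals, and the filled point an adjusted p under 0.05. *Gal* in the *Ror2* P5 comparison, at -3.09, is the filled point, and the *Calca* intervals lie to the right of 0 in all 4 panels.

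By comparison, none of the 8 members was called in the *Vangl2* P2 comparison by limma, where 3.59% of 17448 genes were. There 1 member had an unadjusted p under 0.05, against 22.5% of genes, and DESeq2 called 1 (*Calca*), against 11% of genes, and edgeR 0, against 3.67%. In the *Vangl2* P5 comparison limma called none of the 8 and 0.563% of 17410 genes. With replicate number as a block it called 1 member (*Calca*) and 1558 of the 17410 genes. There 3 members had an unadjusted p under 0.05, against 18.8% of genes. DESeq2 and edgeR called 0 members, against 6.89% and 0.396% of genes. DESeq2 gave *Chga* no p-value there, so its 0 covers the other members. In the *Ror2* P2 comparison limma called 0 members and 0% of 17541 genes, with 2 members and 19.3% of genes at an unadjusted p under 0.05. DESeq2 and edgeR called none of the 8 there, against 3.8% and 0% of genes. In the *Ror2* P5 comparison limma, edgeR and DESeq2 each called *Gal* alone of the 8, against 0.128%, 0.14% and 4.65% of genes. There 5 members, or 4 of 7 without *Chga*, had an unadjusted p under 0.05, against 18.4% of genes. *Calca* is among them, and its 3 mutants were enough to pass the filter there.

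Every mutant was above every control for 2 of the 8 in the *Vangl2* P2 comparison (*Calca* and *Resp18*) and for 2 in the *Vangl2* P5 comparison (*Resp18* and *Scg5*), against 14.6% and 13.2% of genes. In the *Ror2* comparisons this held for 1 at P2 (*Calca*) and 5 at P5 (*Calca*, *Resp18*, *Scg5*, *Chga* and *Syp*), against 13.4% and 15.6% of genes. *Calca* and *Syp* at P5 rested on 2 controls, and without *Chga*, which could enter that test only with its mutants above, the P5 count was 4 of 7. The 3 *Calca* mutants were also enough to pass the filter there, so its place in that count is a description. *Uchl1* in the *Ror2* P2 comparison and *Gal* in the *Ror2* P5 comparison had every mutant below, against 12.2% and 14.3% of genes. An exact two-sided permutation test over the lungs of 1 comparison cannot give a p below 0.1, the value it gave for each of these. The median log2 fold change over the 8 was 0.42 and 0.84 in *Vangl2* mutants at P2 and P5 and 0.15 and 0.66 in *Ror2* mutants, where the median over all genes tested lay near 0. Without *Chga* the *Ror2* P5 median was 0.35.

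The fold changes were also set against each other in fits over 12 lungs. None of the 32 differences, 8 genes in 4 settings, passed the test. At an unadjusted p under 0.05 there was 1 member each for *Ror2* minus *Vangl2* at P2 (*Uchl1*) and at P5 (*Gal*) and for P5 minus P2 in *Ror2* mutants (*Chga*, with no read in the P5 controls), against 4.6%, 4.73% and 9.51% of genes by limma, and 0 for P5 minus P2 in *Vangl2* mutants, against 8.45%. For *Gal* at P5, the fold change in *Ror2* minus that in *Vangl2* mutants was -3.44 on the log2 scale (SE 0.67), with an adjusted p of 0.258 by limma, in a fit that called 0.0118% of genes. *Resp18* and *Scg5* differed by -0.07 (interval -1.14 to 1.01) and -0.04 (interval -1.33 to 1.25) between the mutants at P5, so that the limits still allow a difference of more than 2-fold either way. For age, the P5 fold change minus the P2 one was 0.92 for *Resp18* in *Vangl2* mutants (SE 0.50) and 1.20 in *Ror2* mutants (SE 0.55), and 0.84 (SE 0.56) and 0.81 (SE 0.56) for *Scg5*. Those 4 values were all positive, with adjusted p between 0.527 and 0.666 by limma. The difference between mutants for *Calca* was -0.29 at P2 (SE 0.94) and 0.91 at P5 (SE 1.07).

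Of 69 other genes of neuroendocrine cells, grouped as regulators, granule cargo and processing, vesicle exocytosis, peptides and amines, peptide receptors and other markers, between 60 and 64 were tested. In the *Vangl2* P2 comparison 1 was called, *Ddc*, and it fell. It encodes the enzyme that makes dopamine and serotonin from their precursors and had 338, 315 and 295 normalized counts in controls and 97.2, 148 and 183 in mutants (log2 fold change -1.18, limma's adjusted p = 0.0410). In the *Vangl2* P5 comparison *Ddc* had 277, 309 and 372 in controls and 158, 250 and 121 in mutants. It overlapped in the *Ror2* comparisons. The P2 controls there had 255, 213 and 207 and the mutants 125, 281 and 58.8. At P5 the *Ror2* controls had 409, 347 and 311 and the mutants 188, 233 and 358. None of the list was called in the other comparisons by limma. At an unadjusted p under 0.05 there were 10 of 64 in the *Vangl2* P2, 13 of 61 in the *Vangl2* P5, 6 of 61 in the *Ror2* P2 and 10 of 60 in the *Ror2* P5 comparison, against 22.5%, 18.8%, 19.3% and 18.4% of all genes. The list's median log2 fold change was 0.16 and 0.17 in *Vangl2* mutants and -0.11 and 0.12 in *Ror2* mutants, at P2 and P5.

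*Insm1*, a zinc-finger factor of endocrine cells, had log2 fold changes of 0.28, 1.54, 0.93 and 1.55 in the *Vangl2* P2, *Vangl2* P5, *Ror2* P2 and *Ror2* P5 comparisons. Its levels were low, from 0 to 36.6 normalized counts. Every mutant was above every control in the last 3, as for 13.2%, 13.4% and 15.6% of genes tested. In the *Ror2* P2 comparison mutant 2 and control 2 each had 8 reads and differed by their size factors alone (7.59 and 7.35 normalized counts). The *Ror2* P5 controls had 0, 1 and 1 reads and the mutants 3, 7 and 2. The 3 mutants were enough to pass the filter there, so that separation is a description. In the *Vangl2* P5 comparison mutant 3, the lung high in neuron markers, had 41 reads, against 12 and 8 in the other mutants and 1 to 9 in controls.

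*Grp*, gastrin-releasing peptide, a bombesin-like peptide of these cells, did not overlap in either *Vangl2* comparison. Every mutant was above every control there, as for 14.6% of genes tested at P2 and 13.2% at P5. The P2 controls had 61.1, 29.4 and 37.4 normalized counts and the mutants 84.8, 77.7 and 85.6 (log2 fold change 1.00, limma's adjusted p = 0.112). At P5 the log2 fold change was 1.29 (adjusted p = 0.149 by limma), and in *Ror2* mutants it was 0.28 at P2 and 1.27 at P5 with overlapping groups. *Pcsk1*, a convertase that cuts prohormones, had values of 0.89, 1.46, 0.34 and 0.79 in the same order of comparisons. Its mutants were all above the controls in the first, as for 14.6% of genes tested. *Neurod1* was listed at 0 in 23 of 24 lungs and had 2 reads in the other.

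**Figure D3:**
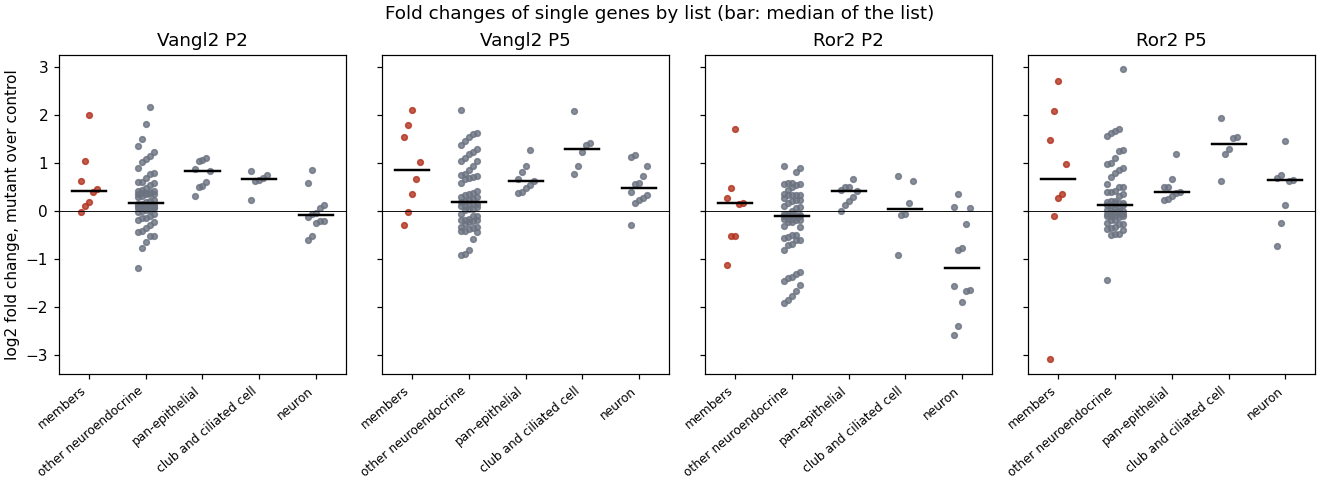
Log2 fold change, mutant over control, of each gene of 5 lists in the 4 comparisons, with 1 point per gene tested and a bar at the list's median. Red points are the 8 members. The medians of club and ciliated cell genes, at 1.29 and 1.40 in the P5 panels, lie above those of the 8 members, and the neuron genes of the *Ror2* P2 panel have a median of -1.19.

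Pan-epithelial genes mostly had positive fold changes, as *Calca* and *Resp18* did, while other epithelial lists varied by comparison. All 9 pan-epithelial genes had positive log2 fold changes in 3 comparisons and 8 in the *Ror2* P2 comparison, and limma called 4 of them in the *Vangl2* P2 and 1 in the *Ror2* P5 comparison. Their summed normalized counts were 1.597 and 1.47 times the control mean in *Vangl2* mutants at P2 and P5 and 1.33 and 1.37 times in *Ror2* mutants. *Cdh1* and *Nkx2-1*, the most abundant of them, had log2 fold changes of 0.29 to 0.49 and 0.32 to 0.53. The summed club and ciliated cell genes, led by *Scgb1a1* and *Scgb3a2*, stood at 1.62 and 2.36 times the control mean in *Vangl2* mutants and 1.41 and 2.53 times in *Ror2* mutants. In the *Ror2* P2 comparison that sum followed *Scgb1a1* (log2 fold change 0.72), while *Scgb3a2* had -0.92, 3 of the 6 genes were positive and their median was 0.04. In every mutant of both P5 comparisons all 6 of these genes were above every control that had a value, with no call by limma. That order held for 13.2% of all genes tested in the *Vangl2* P5 and 15.6% in the *Ror2* P5 comparison. In the latter the pan-epithelial and the club and ciliated cell sums rest on 2 controls, since control 1 lacks values for some of these genes.

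Per 1000 summed counts of the pan-epithelial genes, *Calca* ran from 0.559 to 1.26 in the *Vangl2* P2 controls and from 1.49 to 5.34 in the mutants. It was also above the controls in the *Ror2* P2 (0.438 to 1.10 against 1.23 to 3.82) and *Ror2* P5 comparisons (0 to 0.220 against 0.350 to 1.31). Per 1000 counts of the club and ciliated cell genes it stayed above in the *Vangl2* P2 and *Ror2* P5 comparisons and overlapped in the other two. *Resp18* per 1000 pan-epithelial counts did not overlap at P5 (0.470 to 0.735 against 0.782 to 1.79 for *Vangl2*, 0.360 to 0.439 against 0.816 to 0.914 for *Ror2*). Per 1000 club and ciliated cell counts it overlapped in all 4 comparisons. Per 1000 pan-epithelial counts *Uchl1* lay below the controls in the *Vangl2* P5, *Ror2* P2 and *Ror2* P5 comparisons (*Vangl2* P5 controls 10.9 to 15.2, mutants 7.65 to 10.5). *Syp* lay below in both *Vangl2* comparisons, and *Gal* in the *Vangl2* P2 and *Ror2* P5 ones. *Scg5* and *Chga* lay above in the *Ror2* P5 comparison alone, and *Chgb* overlapped throughout. Every *Ror2* P5 comparison on these scales rests on 2 controls, since control 1 had no sum for either list. The share of all genes on these scales was not computed. The part of the airway cells in the *Calca* and *Resp18* values was not tested.

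Neuron markers were detected in every comparison. Of 13 neuron genes, 8 to 12 of which were tested, none was called by limma in any comparison, with 0, 1, 2 and 1 at an unadjusted p under 0.05 in the *Vangl2* P2, *Vangl2* P5, *Ror2* P2 and *Ror2* P5 comparisons. Their sum was 120 to 216 normalized counts in the *Vangl2* P5 controls and 181, 187 and 516 in the mutants, mutant 3 being the highest. In the *Ror2* P2 comparison controls 2 and 3 were high, at 506 and 374, against 139 in control 1 and 196 to 235 in the mutants. *Ret* and *Tubb3* were the most abundant of the list, and *Chat* reached no more than 4 reads in a lung. *Chat* and *Elavl4* were chosen for naming after their values were seen. The part of the neuron markers in the *Uchl1*, *Syp*, *Scg5* and *Chga* values was not tested.

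Limma also called 6 of 8 neutrophil genes tested in the *Vangl2* P2 comparison and 3 in the *Vangl2* P5 comparison, all higher in mutants, and none in the *Ror2* comparisons. It called 2 alveolar type II genes and 1 alveolar type I gene higher in the *Vangl2* P2 comparison. The median log2 fold change of the 7 alveolar type II genes was 0.41 in the *Vangl2* P2, 0.44 in the *Vangl2* P5 and 0.28 in the *Ror2* P2 comparison and -0.18 in the *Ror2* P5 comparison, where 3 were positive. No Schwann cell and glia gene and no gene of atrial and pulmonary vein heart muscle was called in any comparison by limma, with 11 and 1 values at an unadjusted p under 0.05 over the 4. The part of these cells in the members' values was not tested.

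The 5 genes outside the lists whose log2 values followed *Gal* most closely over 23 lungs, each centred on the mean of its table, were *Snx15*, *Nt5e*, *Ganc*, *Fgf13* and *Aes*, of 16563 genes compared. Pearson's r was 0.827, 0.775, 0.756, 0.733 and 0.717, and Spearman's rho 0.832, 0.722, 0.676, 0.743 and 0.688. The 23 lungs leave out control 1 of the *Ror2* P5 comparison and share their tables and depths, so the correlations are descriptions. Each table mean covers controls and mutants, so the *Gal* difference of the *Ror2* P5 comparison enters r. A fall of these genes in that comparison is therefore no separate result. *Nt5e*, which encodes a cell-surface nucleotidase, had a log2 fold change of -0.87 in the *Ror2* P5 comparison (SE 0.10, limma's adjusted p = 0.0519). *Snx15*, a sorting nexin, had -0.32 there (SE 0.10, adjusted p = 0.179 by limma).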

How the data were processed

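RNA of the left lung lobe was sequenced on Illumina HiSeq instruments. For each of 4 comparisons there is 1 table of 23420 genes, in which the authors deposited signal values, that is, reads per gene after scaling each lung by its size factor. The submitters' processing notes name mm10 and DESeq2. The aligner, read counter and strand setting are not given in the sources used here. The deposited tables also hold the authors' mean, fold change, standard error, statistic and p-values, which were not used. Gene names had turned into dates in 27 rows, which were kept. All columns of lung values map to samples of the series.

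Every value of the 24 lungs was within 0.02 of a whole read after multiplication by the size factor. The main test was limma 3.58.1 (R 4.3.3) with a mean-variance trend, applied to log2(normalized count + 1) in all 6 lungs. A gene entered if 3 or more lungs reached a normalized count of 1. Benjamini-Hochberg adjustment ran over every gene tested, and 0.05 was the threshold. A fold change on this scale understates that of low genes. In the *Ror2* P5 comparison control 1 was set to missing for genes of chromosomes 5 to 9 and X, and the members there (*Calca*, *Uchl1* and *Syp*) were fitted on 5 lungs. Differences of fold changes were fitted over 12 lungs. Fits were tested on simulated data, with changes placed only in genes of higher counts and at a fixed spread. That test does not cover the members with few reads.

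Alternatives were pseudocounts of 0.5 and 5, no filter or a minimum of 10, TMM scaling, a replicate block, each lung left out, edgeR 4.0.16 and DESeq2 1.42.0 on the recovered reads, and control 1 of the *Ror2* P5 comparison kept or dropped for every gene. Same-numbered lungs deviated together in the *Vangl2* P5 comparison (r of 0.512, 0.511 and 0.284 over genes), a pairing read from those values and not from a label. In the others at least 1 of the 3 values of r was under 0.1. The main test had no block in any comparison, so its *Vangl2* P5 p-values leave that pairing out. The fit with the block is given as an alternative. Promoters came from RefSeq (GRCm38.p6) and all 8 members matched. The members and gene lists were chosen with earlier results of these data known. All 8 members are named in every comparison, as are *Insm1*, *Neurod1*, *Grp* and *Pcsk1* and any other gene of the neuroendocrine lists that passed the test. *Vangl2* and *Ror2* are given once, where a label names them. A further gene of that rule is not reported here. The 2 most abundant genes are named of each other list whose sum is given, and the 5 genes most like a called member.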

Additional observations from a re-analysis of the deposited data

Results flagged for a closer look

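The members' fold changes differed between groups at an unadjusted p under 0.05 in 3 of 32 differences, by limma in 12 lungs, and none passed the adjustment over all genes. *Gal* had a log2 fold change of -3.09 in *Ror2* and 0.35 in *Vangl2* mutants at P5, a difference of -3.44 (adjusted p = 0.258, and 0.109 to 0.644 over the alternatives). *Chga* in *Ror2* mutants had a fitted P5 value minus P2 value of 2.61 (2.08 and -0.54, adjusted p = 0.454). It had 0 reads in the 3 P5 controls and passed the filter there through the mutants alone, so that this value depends on the pseudocount, is 1.14 with a pseudocount of 5, and is no bound. *Uchl1* had -0.52 in *Ror2* and 0.45 in *Vangl2* mutants at P2, a difference of -0.97 (adjusted p = 0.946). No group had more than 3 lungs, so single lungs were not tested as outliers.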

How the results depend on the processing

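Members were close to the floor of the assay in many lungs, with *Chga* and *Gal* at 0 to 12 reads in most, and 3 lungs per group set the precision. Of the members' values, 321 kept direction and side of the threshold under settings other than leaving out each lung in turn, 2 changed sign, 3 lost and 2 gained a call. Control 1 of the *Ror2* P5 comparison dropped for every gene is among these settings. The same fit is counted again with the lungs left out. When 1 lung was left out, 513 kept both, 49 changed sign, 4 lost and 1 gained a call. *Calca* kept a positive sign in all its alternatives in all 4 comparisons.

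With the replicate block, 1558 genes and 1 member (*Calca*) were called in the *Vangl2* P5 comparison, where 98 and 0 were called without it, 1 gene in the *Ror2* P2 comparison (0 without it), and 1 gene and 0 members in the *Ror2* P5 comparison (22 and 1 without it). The pairing changed no other call of a member. DESeq2 called 1913 genes and 1 member (*Calca*) in the *Vangl2* P2 comparison (626 and 0 by limma), 1199 in the *Vangl2* P5, 666 in the *Ror2* P2 and 799 in the *Ror2* P5 comparison. edgeR called 641, 69, 0 and 24 genes in the same order, and of the members *Gal* alone. In the *Ror2* P5 comparison, control 1 left out for every gene gave 6 genes and 0 members, and control 1 kept as deposited gave 1 gene and 0 members and turned *Uchl1* to 2.28, by construction, since its value there is 0. A pseudocount of 5 turned the P5 minus P2 difference of *Calca* in *Ror2* mutants to -0.033. The cause was not tested for the other changes.

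With 1 lung left out, the genes called ranged from 1 to 2333 in the *Vangl2* P2, 0 to 54 in the *Vangl2* P5, 0 to 859 in the *Ror2* P2 and 0 to 817 in the *Ror2* P5 comparison, and from 0 to 4 for the difference of mutants at P5. Members called ranged from 0 to 1 in the *Vangl2* P2 and *Ror2* P5 comparisons. Log2 fold changes that changed sign ranged from -0.12 to 0.39 (*Scg5*), -0.087 to 0.28 (*Syp*) and -0.17 to 0.26 (*Gal*) in the *Vangl2* P2 comparison, -0.24 to 0.14 (*Uchl1*) and -0.18 to 0.75 (*Gal*) in the *Vangl2* P5 comparison, and -0.21 to 0.57 (*Resp18*), -0.15 to 0.40 (*Scg5*) and -0.053 to 0.24 (*Chgb*) in the *Ror2* P2 comparison. Differences of *Ror2* and *Vangl2* mutants that changed sign ranged from -0.97 to 0.38 (*Calca*) and -0.33 to 0.29 (*Scg5*) at P2. At P5 they ranged from -0.088 to 1.92 (*Calca*), -0.33 to 0.21 (*Resp18*), -0.39 to 0.35 (*Scg5*), -0.88 to 1.40 (*Chga*), -0.66 to 0.14 (*Chgb*) and -0.25 to 0.14 (*Uchl1*). Differences of P5 and P2 ranged from -0.61 to 0.46 (*Calca*), -0.36 to 1.92 (*Chga*), -0.033 to 0.62 (*Chgb*) and -0.16 to 0.77 (*Gal*) in *Vangl2* mutants, and from -0.0040 to 2.00 (*Calca*) and -0.052 to 0.67 (*Chgb*) in *Ror2* mutants.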
